A study of Mus musculus with 12 samples.

Results

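The genes described here are those of the glutathione, peroxidase and NRF2 antioxidant system. A rule on symbols, set with earlier results of these data known, took 58 of the 21956 genes of the deposited table. They comprise 8 glutathione peroxidases (Gpx), 6 peroxiredoxins (Prdx), 6 genes of the thioredoxin system, the 3 superoxide dismutases with catalase, 5 genes of glutathione supply and recycling, 23 soluble and 3 microsomal glutathione S-transferases, and 3 genes of NRF2 regulation and quinone reduction (Nfe2l2, Keap1 and Nqo1). Of the 58 members, 48 passed the filter on low counts in all 5 tests made, Mgst2 passed in 3 of them, and 9 passed in none; those 9 (Gpx2, Gpx5, Gsta1, Gsta2, Gsta3, Gsta5, Gstm3, Gstp3 and Gstt4) never had more than 19 counts in a library.

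Messenger RNA was sequenced from brain tissue beside the hematoma after intracerebral hemorrhage (ICH), the bleeding into the brain that collagenase causes when it is injected into the striatum and digests vessel walls. The design crossed injury with genotype, and asked how deletion of Fabp4, which encodes a fatty acid-binding protein, from microglia changed the response of that tissue. There were 12 libraries, 3 in each of 4 groups, and 1 mouse is taken to stand behind each library because the labels show no pooling; if libraries of a group shared a source, the p-values would measure only technical spread. Sham-Fabp4fl/fl mice (written Fabp4fl_fl in the labels) carried floxed Fabp4 and had surgery without collagenase, and ICH-Fabp4fl/fl mice had the same genotype and were sampled 48 h after collagenase. Sham-Fabp4CKO and ICH-Fabp4CKO mice carried floxed Fabp4 together with a tamoxifen-inducible Cre recombinase under the Tmem119 promoter, which is active in microglia, and received tamoxifen before surgery. Whether the floxed controls received tamoxifen, and the age and sex of these mice, is not stated in the sources used here, so that a tamoxifen or Cre effect cannot be told apart from the deletion. The tissue was not sorted, so each value sums microglia, neurons, other glia, vessels and infiltrating blood cells, and in such bulk samples fewer cells of a type and less RNA per cell cannot be told apart.

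NRF2, the product of Nfe2l2, is the transcription factor that switches on antioxidant genes; KEAP1 holds it in the cytoplasm and hands it to degradation until oxidants or electrophiles modify KEAP1. Its classical targets make glutathione (the catalytic and modifier subunits of glutamate-cysteine ligase, Gclc and Gclm), import cystine for it (Slc7a11), regenerate it (Gsr) and conjugate it to toxic products (the glutathione S-transferases), while peroxiredoxins and glutathione peroxidases reduce peroxides at the expense of thioredoxin and glutathione. After a bleed, heme and iron released from red cells are a source of oxidants in the surrounding tissue.

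Total counts per library ranged from 15650813 to 22406216. Fabp4 had 46, 63 and 24 counts in the ICH-Fabp4fl/fl mice and 5, 3 and 10 in the ICH-Fabp4CKO mice, and 0 to 2 in the sham libraries. Mitochondrial genes took 16.3%, 10.4% and 11.9% of counts in the ICH-Fabp4fl/fl mice and 7.90% to 9.95% in the other 9 libraries, and counts of Y-linked genes were 1 in ICH-Fabp4CKO mouse 1 against 1302 to 2251 in the other libraries. By these counts the ICH-Fabp4CKO group was not of a single sex, unless a label is wrong. The part of sex in its values was not tested. ICH-Fabp4CKO mouse 2 stood apart from mice 1 and 3 of its group: its summed macrophage and monocyte markers reached 1014 CPM (counts scaled to library size, here on 1 TMM-normalized scale over the 12 libraries) against 4914 and 8433, and its neuronal markers 2611 CPM against 1222 and 870. Markers of choroid plexus and ependyma summed to 868 to 3189 CPM in the Sham-Fabp4fl/fl mice and to 73.7 to 76.8 CPM in the Sham-Fabp4CKO mice. Fits were repeated with each library left out in turn, but none left out a whole group. The mitochondrial share of the ICH-Fabp4fl/fl mice and the choroid plexus markers of the Sham-Fabp4fl/fl mice therefore stay with their groups.

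**Figure D1:**
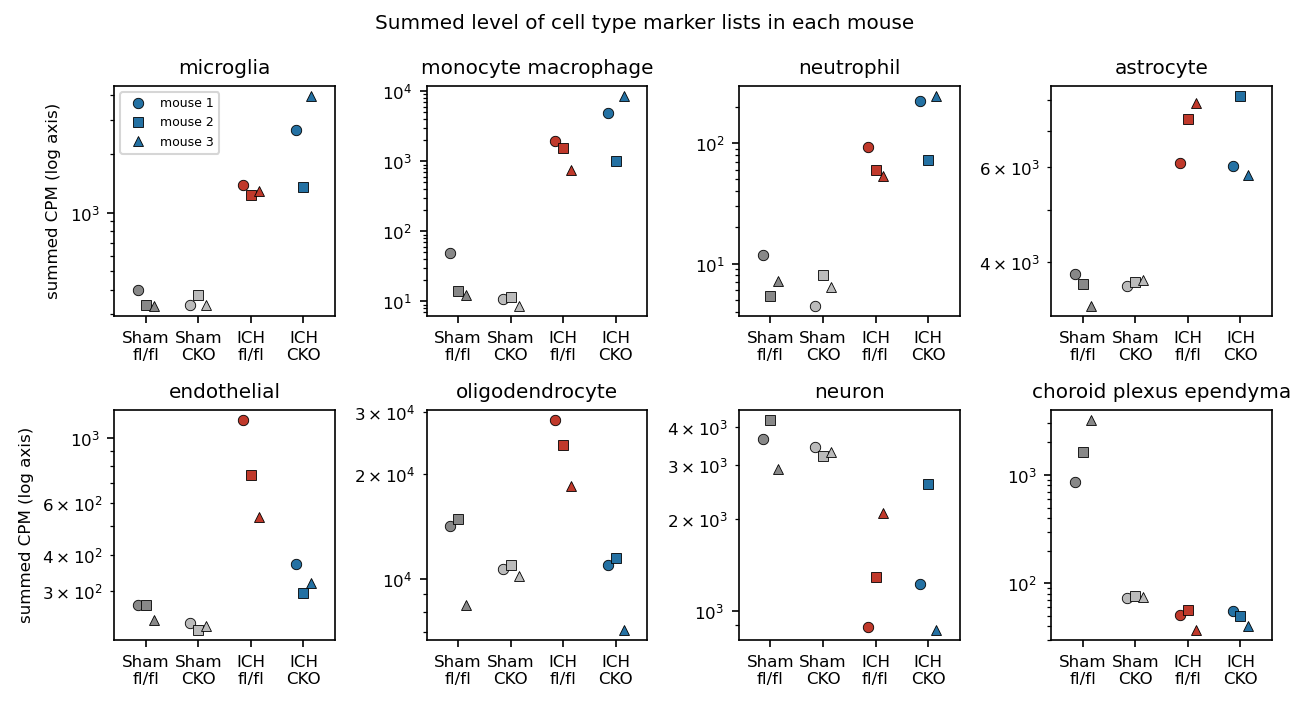
Summed level of 8 cell type marker lists (CPM, log axis) in each of the 12 mice, by group, with a symbol for mouse 1, 2 or 3. Macrophage and monocyte markers lay between 759 and 8433 CPM after ICH and between 8.74 and 49.6 CPM in sham mice, and ICH-Fabp4CKO mouse 2 (square) was the lowest of its group for microglial, macrophage and neutrophil lists.

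Because NRF2 binds the antioxidant response element, the promoter windows of the members (250 bases before to 50 after the start site, from RefSeq on build GRCm38.p6) were searched on both strands for its core, TGACNNNGC. The table held windows for 51 of the 58 members; Gclc, Gsr, Gsta4, Gsta5, Gstt2, Prdx6 and Sod3 had none. The core was present for 10 members (19.6%), against 14.0% of all 27025 genes with a window, and the AP-1 element TGANTCA, which can overlap it, for 6 members (11.8%), against 8.97% of all genes. The 10 members with the core were Gclm, Gsta3, Gstm5, Gstm7, Mgst1, Nfe2l2, Prdx1, Sod1, Srxn1 and Txnrd1, of which Gclm, Mgst1, Nfe2l2, Prdx1 and Txnrd1 were among the members higher after ICH and Gstm5 was lower. Of the members that rose in Fabp4fl/fl mice, 17 had a window and 5 of these the core. Of those that fell, 2 had a window and 1 of these the core. Whether the core goes with a rise was not tested. The match in Prdx1 overlapped an AP-1 element, which no other member's match did. The matches in Gstm7 and Mgst1 lay in exons of coding genes. In Srxn1 the match lay after the start site. Stretches of 120 bases upstream of the start are shown for 5 genes that moved after ICH, each in the direction of the gene, in lower case with the core in capitals. In Gclm, Prdx1 and Txnrd1 the core lies on the opposite strand and is read there as its reverse complement.
Gclm, chr3:122245367-122245486, plus strand, core 134 bases upstream of the start: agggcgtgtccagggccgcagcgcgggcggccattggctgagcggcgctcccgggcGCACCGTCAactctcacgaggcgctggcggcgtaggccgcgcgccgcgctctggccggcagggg
Nfe2l2, chr2:75704794-75704913, minus strand, core 240 bases upstream: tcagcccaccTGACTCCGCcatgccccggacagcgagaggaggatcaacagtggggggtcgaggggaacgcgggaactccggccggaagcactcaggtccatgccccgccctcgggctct
Prdx1, chr4:116685410-116685529, plus strand, core 133 bases upstream: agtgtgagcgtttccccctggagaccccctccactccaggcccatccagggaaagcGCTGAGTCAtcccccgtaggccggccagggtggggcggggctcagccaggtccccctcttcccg
Txnrd1, chr10:82859058-82859177, plus strand, core 92 bases upstream: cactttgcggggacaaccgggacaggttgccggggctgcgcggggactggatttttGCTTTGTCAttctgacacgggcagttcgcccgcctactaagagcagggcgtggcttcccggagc
Gstm5, chr3:107895701-107895820, plus strand, core 42 bases upstream: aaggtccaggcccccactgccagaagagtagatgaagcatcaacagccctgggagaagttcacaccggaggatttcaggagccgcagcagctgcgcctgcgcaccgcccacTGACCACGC
In GENCODE M21 on the same build, the stretches of Gclm, Prdx1 and Txnrd1 overlapped no exon, and those of Nfe2l2 and Gstm5 lay in exons of the long noncoding genes E030042O20Rik and 4933431E20Rik. A match of these letters is a description of the window and was not tested for binding. The build of the deposited counts is not given in the sources used here, so these coordinates belong to the reference alone.

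ICH raised a large share of the antioxidant genes in Fabp4fl/fl mice. Of the 49 members tested, 20 rose (40.8%) and 2 fell (4.08%) when the threshold of 0.05 was set on p-values adjusted by Benjamini-Hochberg over all 14719 genes tested (quasi-likelihood test of edgeR; SE below is the standard error of a log2 fold change), where 26.2% of all genes tested rose and 19.3% fell. The median log2 fold change was 0.38 over the members and 0.02 over all genes tested. Mgst2 passed the filter only through the ICH-Fabp4fl/fl mice, where it was high, and without it 19 of 48 members rose (39.6%), with a median of 0.35. Sham and injured mice were fully separated for 29 of 49 members (59.2%), close to the 61.8% of all genes. With 1 library left out in turn the count of rises lay between 14, without ICH-Fabp4fl/fl mouse 2, and 22, without mouse 3, when 18.2% and 28.9% of all genes rose. Together the 58 members took 0.285% to 0.329% of all counts in sham mice, 0.436% to 0.529% in ICH-Fabp4fl/fl mice and 0.353% to 0.399% in ICH-Fabp4CKO mice. Cell type markers moved in the same comparison: the summed macrophage and monocyte markers went from 12.6 to 49.6 CPM in sham to 759 to 1972 CPM (7 of 7 genes higher), endothelial ones from 239 to 270 CPM to 537 to 1147 CPM (7 of 7 higher), and neuronal ones from 2923 to 4200 CPM down to 888 to 2094 CPM (6 of 6 lower), with none of these genes at 0 in all mice of either group. Markers of choroid plexus and ependyma summed to 868 to 3189 CPM in these sham mice and to 37.4 to 57.0 CPM after ICH (4 of 5 lower). In Sham-Fabp4CKO mice they summed to 73.7 to 76.8 CPM. The mitochondrial share of counts was 8.51% to 9.95% in these sham mice and 10.4% to 16.3% after ICH. The part of these cell types and of the mitochondrial share in the values of the antioxidant genes was not tested.

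**Figure D2:**
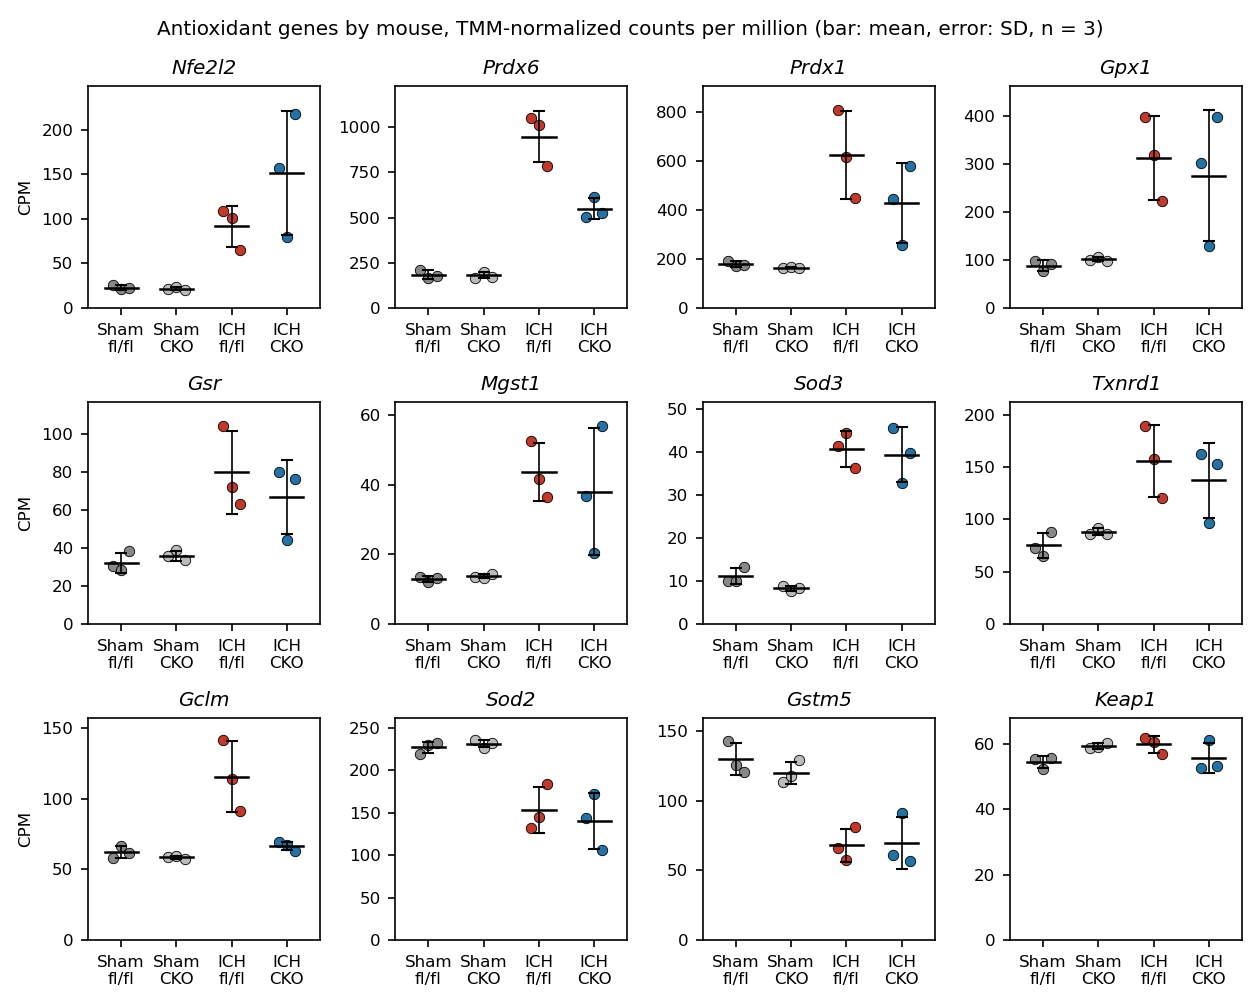
CPM of 12 members in each of the 12 mice by group, with the mean (bar) and SD (error bar, n = 3). Prdx6 rose from 165 to 212 CPM in Sham-Fabp4fl/fl mice to 786 to 1048 CPM in ICH-Fabp4fl/fl mice, whereas Keap1 stayed between 52.2 and 61.7 CPM in those 6 mice and Sod2 and Gstm5 fell.

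Among the NRF2 genes, the transcript of the factor itself rose. Nfe2l2 (ENSMUSG00000015839) stood at 25.6, 20.9 and 22.3 CPM in the Sham-Fabp4fl/fl mice and at 108, 101 and 64.99 CPM in the ICH-Fabp4fl/fl mice. All 3 injured mice were above all 3 sham mice, a 3.86-fold difference (log2 fold change 1.95, SE 0.20, adjusted p = 0.000617). Keap1, its inhibitor, was at 55.3, 52.2 and 55.5 CPM in sham and 61.7, 60.6 and 56.97 CPM in injured mice, groups that did not overlap yet differed by little (log2 fold change 0.10, SE 0.11, adjusted p = 0.508). Nqo1, the quinone reductase often used as a readout of NRF2, was at 6.89, 5.81 and 7.08 CPM in sham and 6.26, 5.55 and 5.63 CPM after ICH. Its groups overlapped and it did not pass the test (log2 fold change -0.22, SE 0.20, adjusted p = 0.380).

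The genes that supply glutathione moved unevenly, with 3 of 5 higher. Gclm (ENSMUSG00000028124), the modifier subunit of the rate-limiting ligase, was at 58.4, 66.4 and 61.9 CPM in sham and 141, 114 and 91.3 CPM after ICH, without overlap (log2 fold change 0.85, SE 0.17, adjusted p = 0.00742). Gclc, the catalytic subunit, was at 67.2, 64.6 and 76.8 CPM in sham and 71.2, 67.9 and 68.5 CPM after ICH. Its groups overlapped (log2 fold change -0.05, SE 0.13, adjusted p = 0.783); the difference between the subunits was not tested. Gss, glutathione synthetase, was at 35.9, 25.03 and 16.5 CPM in sham and 26.9, 21.7 and 21.7 CPM after ICH, also with overlap (log2 fold change -0.18, SE 0.27, adjusted p = 0.610). Gsr, which reduces oxidized glutathione, rose from 30.4, 28.3 and 38.3 CPM to 104, 72.02 and 63.1 CPM, without overlap (log2 fold change 1.26, SE 0.21, adjusted p = 0.00368). Slc7a11, the cystine carrier of system xc-, went from 35.5, 30.4 and 24.1 CPM to 51.4, 55.2 and 35.7 CPM. Its lowest injured mouse was barely above its highest sham mouse (log2 fold change 0.62, SE 0.21, adjusted p = 0.0425), and the adjusted p was 0.0553 with RLE size factors and 0.0699 with library totals in place of TMM, and 0.0583 without the filter on low counts. Exons of Gclm, Gss and Keap1 share bases with other genes in GENCODE M21, as do those of 6 further members, and reads from the shared parts of overlapping genes cannot be told apart in libraries made with a kit that does not mark strand.

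Among the glutathione peroxidases, Gpx1, Gpx7 and Gpx8 rose. Gpx1, the main cytosolic selenoenzyme that reduces hydrogen peroxide, was at 97.2, 76.1 and 91.7 CPM in sham and 398, 318 and 224 CPM after ICH. The groups did not overlap and differed 3.44-fold (log2 fold change 1.78, SE 0.23, adjusted p = 0.00118). Gpx8, a peroxidase of the endoplasmic reticulum, stood at 5.69, 6.35 and 8.26 CPM and 23.01, 27.3 and 12.8 CPM, also without overlap (log2 fold change 1.59, SE 0.30, adjusted p = 0.00540). Gpx7, its neighbor in that compartment, averaged 3.64 ± 0.317 CPM (SD, n = 3) in sham and 10.9 ± 4.68 CPM (SD, n = 3) after ICH (log2 fold change 1.52, SE 0.31, adjusted p = 0.00784). Gpx4, which reduces lipid hydroperoxides in membranes and thereby restrains ferroptosis, was at 242, 227 and 207 CPM in sham and 386, 290.0 and 281 CPM after ICH. All injured mice lay above all sham mice, but the difference missed the threshold (log2 fold change 0.46, SE 0.17, adjusted p = 0.0632); the adjusted p was 0.0395 with DESeq2 and 0.0166 with all 12 libraries in one fit. Gpx3, the secreted form, and Gpx6 overlapped between the groups, with log2 fold changes of -0.11 and 0.29.

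Peroxiredoxins, which reduce peroxides through a reactive cysteine, included the member with the smallest p-value. Prdx6 (ENSMUSG00000026701), a cysteine peroxidase that also acts on phospholipid hydroperoxides, was at 212, 165 and 175 CPM in sham and 1048, 1010 and 786 CPM after ICH. This was a 5.005-fold difference, with all injured mice far above all sham mice (log2 fold change 2.32, SE 0.20, adjusted p = 0.000369). Prdx1, an abundant cytosolic peroxiredoxin, went from 194, 172 and 174 CPM to 806, 615 and 448 CPM, again without overlap (log2 fold change 1.75, SE 0.23, adjusted p = 0.00127). Prdx4, the secretory-pathway form, averaged 17.5 ± 3.69 CPM (SD, n = 3) in sham and 35.4 ± 11.1 CPM (SD, n = 3) after ICH (log2 fold change 0.97, SE 0.25, adjusted p = 0.0167). The other 3, Prdx2 and the mitochondrial Prdx3 and Prdx5, overlapped between the groups and had log2 fold changes between 0.10 and 0.29.

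In the thioredoxin system, thioredoxin and its cytosolic reductase rose and the mitochondrial pair did not pass. Txnrd1, the NADPH-dependent selenoenzyme that reduces thioredoxin, was at 72.6, 64.8 and 88.3 CPM in sham and 189, 158 and 120.4 CPM after ICH, without overlap (log2 fold change 1.00, SE 0.20, adjusted p = 0.00691). Txn1 averaged 32.6 ± 7.77 CPM (SD, n = 3) in sham and 88.5 ± 32.9 CPM (SD, n = 3) after ICH (log2 fold change 1.39, SE 0.28, adjusted p = 0.00765). Srxn1, sulfiredoxin, which reactivates overoxidized peroxiredoxins, was at 120.1, 117 and 101 CPM in sham and 157, 137 and 118 CPM after ICH. Its groups overlapped (log2 fold change 0.25, SE 0.15, adjusted p = 0.219), like those of Txnrd2 and Txnrd3, whereas Txn2 was higher in all 3 injured mice with a log2 fold change of 0.31 (adjusted p = 0.0818).

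The superoxide dismutases went in different directions. Sod3, the extracellular form, stood at 10.03, 10.02 and 13.3 CPM in sham and 41.4, 44.6 and 36.3 CPM after ICH, a 3.56-fold rise without overlap (log2 fold change 1.83, SE 0.17, adjusted p = 0.000429). Sod2, the mitochondrial form, fell from 219, 229 and 231 CPM to 131, 145 and 184 CPM, also without overlap (log2 fold change -0.60, SE 0.18, adjusted p = 0.0322). It was not called when any one of Sham-Fabp4fl/fl mice 1, 2 or 3 or ICH-Fabp4fl/fl mice 1 or 2 was left out. Sod1, the cytosolic copper-zinc form, was at 139, 126 and 145 CPM in sham and 193, 124 and 145 CPM after ICH, with overlap (log2 fold change 0.13, SE 0.19, adjusted p = 0.576). Catalase (Cat), the peroxisomal enzyme that splits hydrogen peroxide, rose from 82.5, 78.8 and 57.3 CPM to 123, 127 and 96.6 CPM (log2 fold change 0.62, SE 0.18, adjusted p = 0.0286).

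Of the glutathione S-transferases, 4 soluble and 2 microsomal ones rose and 1 fell, out of 19 tested. Among the 16 soluble ones tested, 25% rose and 6.25% fell, where 26.2% of all genes rose and 19.3% fell. The share of soluble ones that rose was thus near that of all genes, and 1 of the 2 microsomal rises was Mgst2. Mgst1, a membrane-bound transferase with peroxidase activity, was at 13.5, 12.1 and 13.2 CPM in sham and 52.6, 41.5 and 36.4 CPM after ICH, without overlap (log2 fold change 1.71, SE 0.16, adjusted p = 0.000464). Mgst2, which can also make leukotriene C4, had 0, 0 and 1 counts in the sham mice and 29, 14 and 12 counts after ICH. This was at least 7.66-fold higher, taking 3 counts per library as the floor of the sham libraries. Since it passed the filter only through the group where it was high, its value is a description. Mgst3 averaged 53.7 ± 20.7 CPM (SD, n = 3) in sham and 34.5 ± 6.74 CPM (SD, n = 3) after ICH and did not pass (adjusted p = 0.114). Gstm1 (ENSMUSG00000058135), the most abundant mu-class enzyme here, stood at 217, 199 and 209 CPM in sham and 365, 305 and 308 CPM after ICH, without overlap (log2 fold change 0.61, SE 0.15, adjusted p = 0.0152). Gstt1, a theta-class enzyme, was at 7.18, 7.07 and 6.56 CPM and 12.2, 13.03 and 11.1 CPM (log2 fold change 0.76, SE 0.17, adjusted p = 0.00958). Gstm2 and Gstm4 were also higher, with log2 fold changes of 1.69 and 0.58, and Gstm4 was not called with RLE size factors, with library totals or without the filter. Gstm5, the brain and testis mu-class enzyme, fell from 143, 126 and 121 CPM to 66.2, 57.4 and 80.9 CPM, without overlap (log2 fold change -0.97, SE 0.18, adjusted p = 0.00522). Gstp1, the pi-class enzyme, was at 152, 158 and 152 CPM and 189.6, 141 and 153 CPM, and its direction changed with the normalization (log2 fold change 0.02, SE 0.15, adjusted p = 0.907; -0.02 with RLE size factors). Members of the alpha, mu, pi and theta classes are near-identical copies in part, so that estimated counts may be shared between them and single values within a class are uncertain.

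**Figure D3:**
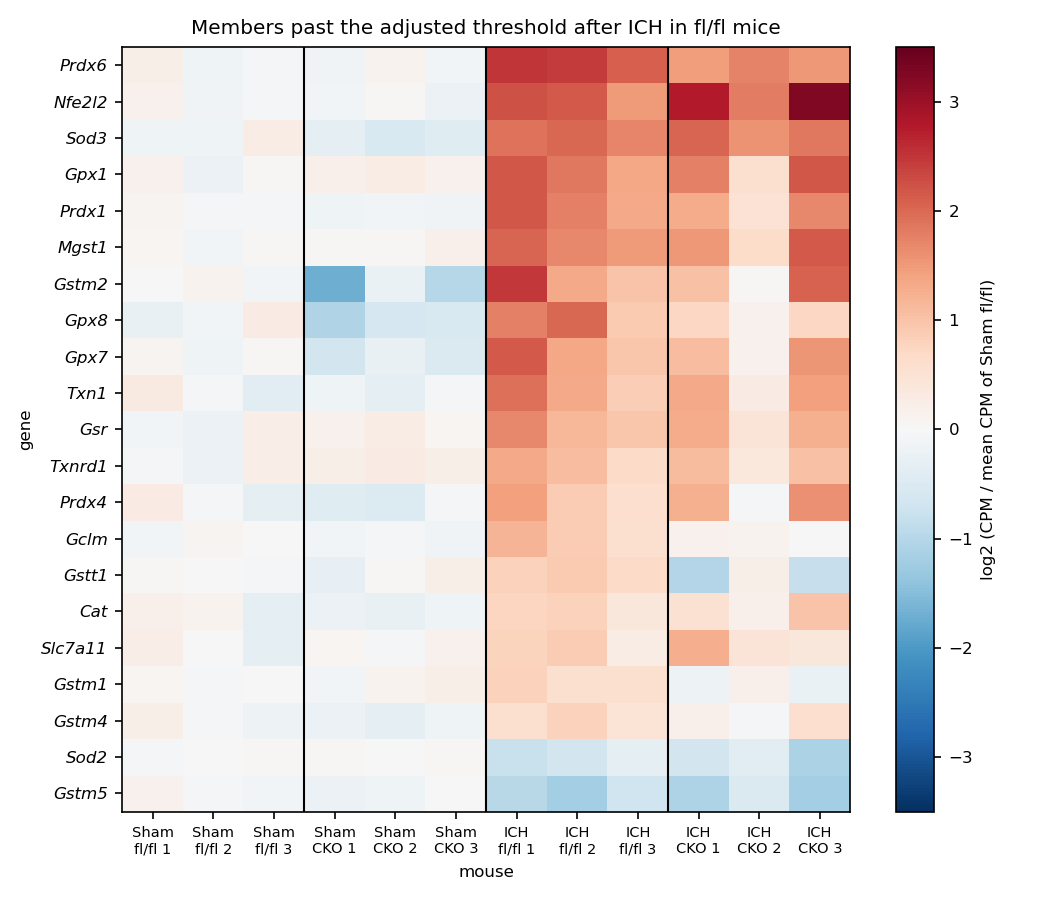
Log2 of the ratio of CPM in each mouse to the mean CPM of the Sham-Fabp4fl/fl mice (color scale) for 21 of the 22 members past the adjusted threshold after ICH in Fabp4fl/fl mice, leaving out Mgst2, which had counts of 0. Rows are genes in order of fold change and columns are mice; ICH-Fabp4CKO mouse 2 was the lowest of its group for 15 of the 20 members that rose.

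In Fabp4CKO mice 13 of the genes that rose in Fabp4fl/fl mice rose as well. Of 48 members tested, 14 rose (29.2%) and 3 fell (6.25%), where 24.5% of all 14737 genes tested rose and 11.1% fell. The median log2 fold change was 0.26 over the members and 0.01 over all genes. This comparison shares no library with the one in Fabp4fl/fl mice, and 13 genes rose in both, 65.0% of the 20 and 92.9% of the 14. These were Nfe2l2, Gpx1, Gpx7, Gpx8, Gsr, Mgst1, Prdx1, Prdx4, Prdx6, Gstm2, Cat, Sod3 and Txn1. Sod2 and Gstm5 fell in both. The shares of all genes that rose or fell in both were not computed, so these overlaps have no background to be read against. Gsto1, an omega-class transferase, rose in the CKO comparison only as far as the calls go (log2 fold change 0.81, adjusted p = 0.0494), and Gstm6 fell there (-0.95, adjusted p = 0.0348); in Fabp4fl/fl mice their log2 fold changes were 0.38 and -0.62, and the tests of the difference between genotypes gave adjusted p = 0.711 for Gsto1 and 0.753 for Gstm6.

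The rises of Nfe2l2, Prdx6 and Sod3 held whichever of the 6 libraries was left out. Nfe2l2 stood at 21.4, 23.6 and 19.9 CPM in the Sham-Fabp4CKO mice and 157, 79.7 and 218 CPM in the ICH-Fabp4CKO mice, a 7.01-fold difference (log2 fold change 2.81, SE 0.37, adjusted p = 0.00656). Prdx6 was at 169, 200.2 and 173 CPM and 503, 615 and 528 CPM (log2 fold change 1.61, SE 0.16, adjusted p = 0.00478). Sod3 was at 8.88, 7.70 and 8.37 CPM and 45.7, 32.8 and 39.9 CPM (log2 fold change 2.25, SE 0.17, adjusted p = 0.00478). For all 3 genes every injured CKO mouse was above every sham CKO mouse. The rest of the count depends on single libraries: it was 3 without any one of the Sham-Fabp4CKO mice, when 4.69% to 5.32% of all genes rose, or without ICH-Fabp4CKO mouse 1 (9.63% of all genes), 6 without ICH-Fabp4CKO mouse 3 (15.8%) and 22 without ICH-Fabp4CKO mouse 2 (34.8%). The falls numbered 10 without ICH-Fabp4CKO mouse 2 (32.7% of all genes fell), 1 without mouse 3 (4.68%) and 0 without any of the other 4 libraries.

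ICH-Fabp4CKO mouse 2 lay nearest to sham for most of these genes. Gpx1 was at 101, 107 and 97.6 CPM in Sham-Fabp4CKO and 301, 129 and 397 CPM in ICH-Fabp4CKO mice, so that the lowest injured mouse exceeded the highest sham mouse by little (log2 fold change 1.44, SE 0.39, adjusted p = 0.0357). Prdx1 was at 163, 168 and 164 CPM and 443, 257 and 581 CPM (log2 fold change 1.37, SE 0.30, adjusted p = 0.0198). Mgst1 was at 13.4, 13.3 and 14.5 CPM and 36.8, 20.4 and 56.8 CPM (log2 fold change 1.47, SE 0.36, adjusted p = 0.0274). In each of the 3 the second injured mouse was the lowest. That mouse also had the lowest macrophage and monocyte markers (1014 CPM) and fibroblast markers (60.8 CPM) of its group. The part of these cells in these values was not tested. Gsr was at 35.6, 38.9 and 33.6 CPM and 80.05, 44.4 and 76.3 CPM (log2 fold change 0.89, SE 0.24, adjusted p = 0.0338), and Cat at 63.02, 61.3 and 65.4 CPM and 106, 82.5 and 146 CPM (log2 fold change 0.82, SE 0.22, adjusted p = 0.0337). Gpx8 was at 3.24, 4.52 and 4.69 CPM and 11.2, 7.51 and 11.1 CPM (log2 fold change 1.26, SE 0.25, adjusted p = 0.0154). None of these 6 genes overlapped between sham and injured CKO mice, which held for 28 of the 48 members tested (58.3%). The share of all genes without overlap was not computed for this comparison.

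There were 7 members that rose in Fabp4fl/fl mice and were not called in Fabp4CKO mice: Gclm, Slc7a11, Txnrd1, Gstm1, Gstm4, Gstt1 and Mgst2, the last of which was not tested there. Slc7a11 was at 31.6, 28.8 and 33.4 CPM in Sham-Fabp4CKO and 71.7, 40.9 and 39.3 CPM in ICH-Fabp4CKO mice without overlap, and had an estimate near that in Fabp4fl/fl mice (log2 fold change 0.70, SE 0.26, adjusted p = 0.0716). Txnrd1 was at 86.3, 91.9 and 86.1 CPM and 163, 96.4 and 153 CPM, also without overlap (log2 fold change 0.64, SE 0.21, adjusted p = 0.0566). For these 2 genes the test of the difference between genotypes gave no call (unadjusted p = 0.926 and 0.211). Gclm was at 58.6, 59.7 and 57.5 CPM and 69.1, 67.6 and 63.1 CPM, a separation of the groups by a few CPM (log2 fold change 0.19, SE 0.10, adjusted p = 0.171). Gstm1 was at 197, 225 and 241 CPM and 185, 236 and 178 CPM, with the groups overlapping (log2 fold change -0.14, SE 0.16, adjusted p = 0.496). Gstt1 was at 5.64, 7.12 and 8.05 CPM and 3.43, 7.99 and 3.99 CPM, with 2 of the 3 injured mice below every sham mouse (log2 fold change -0.43, SE 0.36, adjusted p = 0.353).

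**Figure D4:**
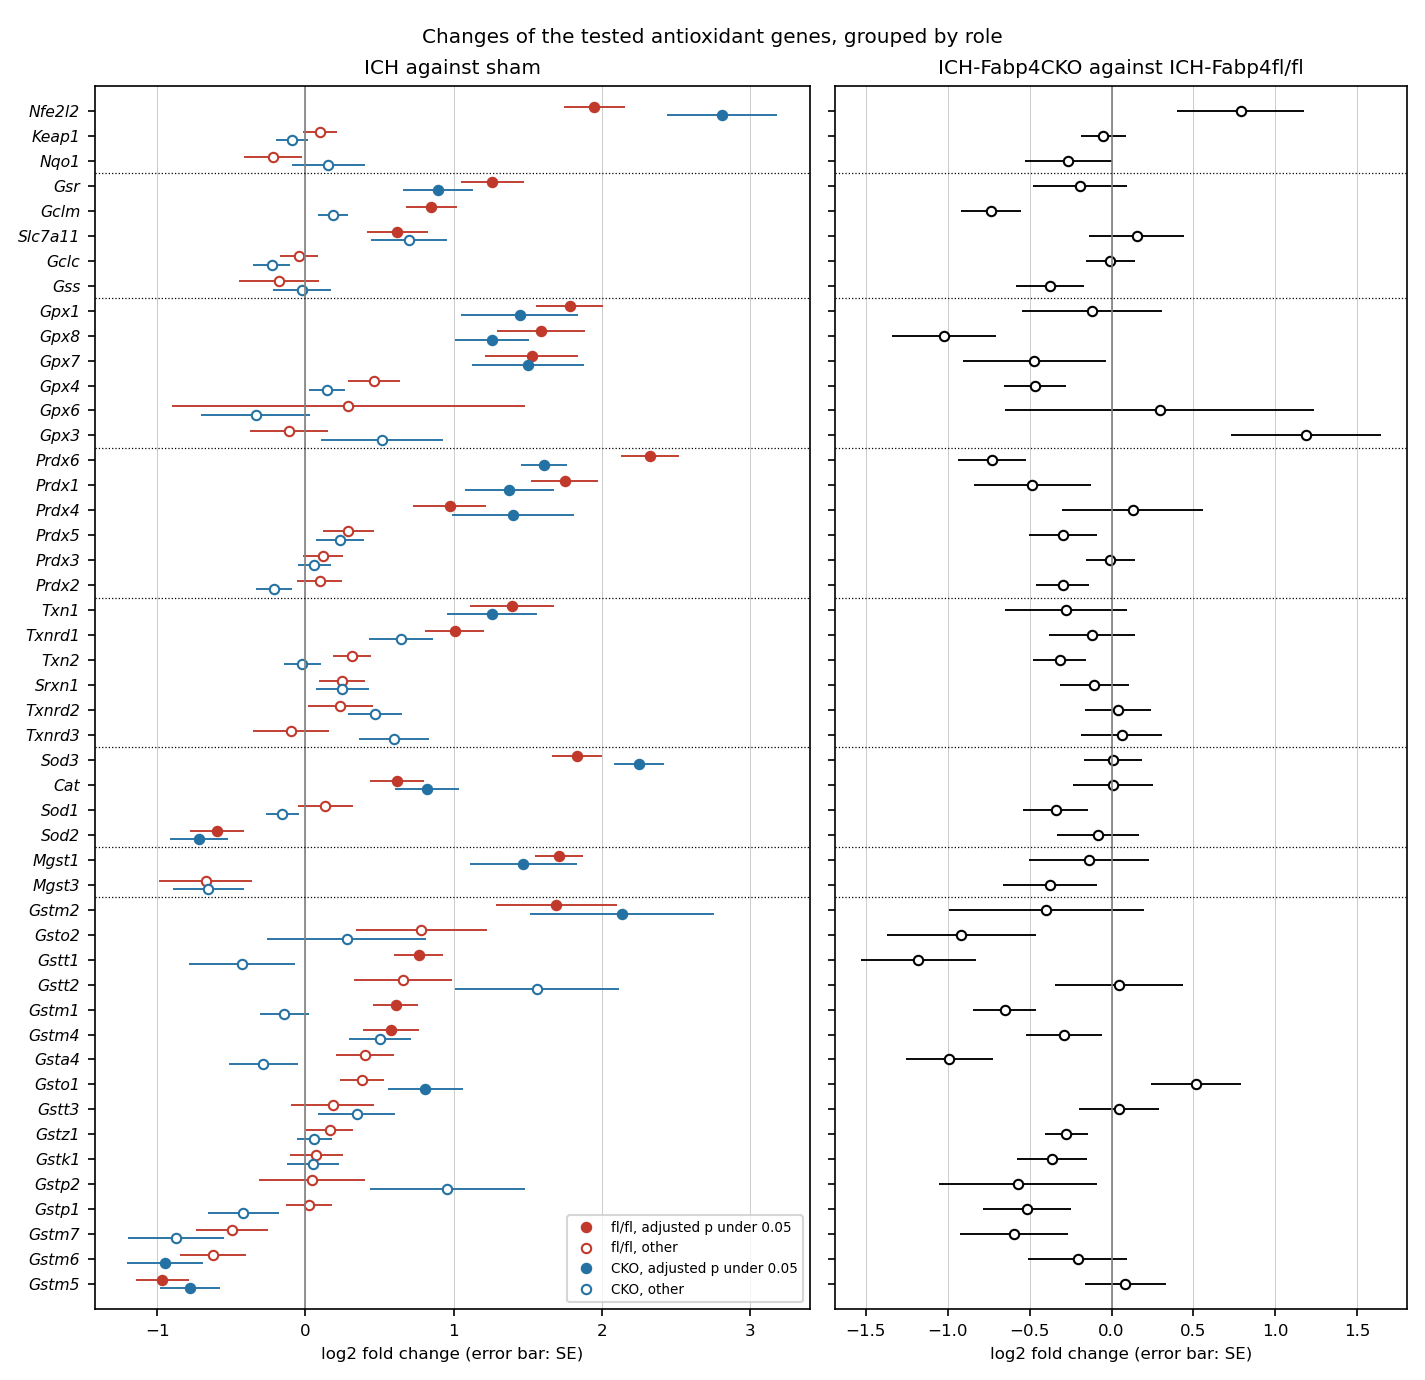
Log2 fold changes (points) with standard errors (bars) of 48 members, grouped by role and ordered within a role by the change in Fabp4fl/fl mice; Mgst2 is left out because its sham libraries were at or under 3 counts. Left, ICH against sham in Fabp4fl/fl and Fabp4CKO mice, filled where the adjusted p is under 0.05; right, ICH-Fabp4CKO against ICH-Fabp4fl/fl, where no point is filled and Gpx3, at 1.19, is the highest.

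Whether the injured tissue of the floxed and CKO mice differed was asked by comparing ICH-Fabp4CKO with ICH-Fabp4fl/fl mice directly. No member passed the adjusted threshold in edgeR's quasi-likelihood test, nor did any of the 14600 genes tested (0% higher and 0% lower). At an unadjusted p under 0.05, 8 of 49 members were lower (16.3%) and 1 was higher (2.04%), where 5.82% of all genes were lower and 6.36% higher. Without Mgst2, which passed the filter only through the floxed mice, 7 of 48 were lower (14.6%). Of the 49 log2 fold changes, 36 were below 0, with a median of -0.28 against 0.06 over all genes. Full separation was seen for 14 members (28.6%), against 19.8% of all genes. DESeq2 called 4 members lower at an adjusted p under 0.05, where it called 2.21% of all genes lower, and edgeR with all 12 libraries in one fit called 4, where it called 1.38%. Both named Prdx6, Gclm, Gsta4 and Gstm1.

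The 8 lower members came from several roles. Gclm was at 141, 114 and 91.3 CPM in the ICH-Fabp4fl/fl mice and 69.1, 67.6 and 63.1 CPM in the ICH-Fabp4CKO mice, the latter close to the sham values of 57.5 to 66.4 CPM (log2 fold change -0.74, SE 0.18, unadjusted p = 0.00588, adjusted p = 0.314; 0.0123 with DESeq2). Prdx6 was at 1048, 1010 and 786 CPM and 503, 615 and 528 CPM (log2 fold change -0.73, SE 0.21, unadjusted p = 0.0110, adjusted p = 0.331; 0.00497 with DESeq2). Gstm1 was at 365, 305 and 308 CPM and 185, 236 and 178 CPM (log2 fold change -0.65, SE 0.19, unadjusted p = 0.0124, adjusted p = 0.339; 0.0185 with DESeq2). Every CKO mouse lay below every floxed mouse in these 3 genes, and the CKO means were 0.600, 0.602 and 0.636 of the floxed ones in the fit. Gsta4, the alpha-class enzyme that conjugates 4-hydroxynonenal from oxidized lipids, was at 36.7, 33.96 and 26.4 CPM in Sham-Fabp4fl/fl, 55.7, 37.6 and 39.1 CPM in ICH-Fabp4fl/fl and 19.7, 28.4 and 16.02 CPM in ICH-Fabp4CKO mice (log2 fold change -0.99, SE 0.26, unadjusted p = 0.00811, adjusted p = 0.314; 0.0366 with DESeq2). Gstt1 was at 12.2, 13.03 and 11.1 CPM and 3.43, 7.99 and 3.99 CPM (log2 fold change -1.18, SE 0.35, unadjusted p = 0.0133, adjusted p = 0.339). Gpx8 was at 23.01, 27.3 and 12.8 CPM and 11.2, 7.51 and 11.1 CPM (log2 fold change -1.02, SE 0.32, unadjusted p = 0.0162, adjusted p = 0.341). These 3 again separated the groups, though for Gpx8 the lowest floxed mouse was near the highest CKO mouse. Without injury Gpx8 was at 5.69, 6.35 and 8.26 CPM in floxed and 3.24, 4.52 and 4.69 CPM in CKO mice. Its injury response differed between genotypes by -0.38 (SE 0.41, unadjusted p = 0.381 in edgeR's test). Gsta4 was at 25.4, 23.2 and 29.4 CPM in Sham-Fabp4CKO mice, which overlapped the ICH-Fabp4CKO mice. Its difference was -0.73 (SE 0.33, unadjusted p = 0.0463, adjusted p = 0.493). Gpx4 was at 386, 290.0 and 281 CPM and 241, 208 and 216 CPM, with the CKO mice near the sham range of 194 to 242 CPM (log2 fold change -0.47, SE 0.19, unadjusted p = 0.0452, adjusted p = 0.399). Mgst2 had 29, 14 and 12 counts in the floxed and 4, 0 and 4 counts in the CKO mice, a description for the reason given above. Over the single libraries left out, between 5 and 10 members were lower at an unadjusted p under 0.05, with 5 without ICH-Fabp4CKO mouse 1. The share of all genes at that threshold was not computed in these fits, so these counts have no background to be read against.

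**Figure D5:**
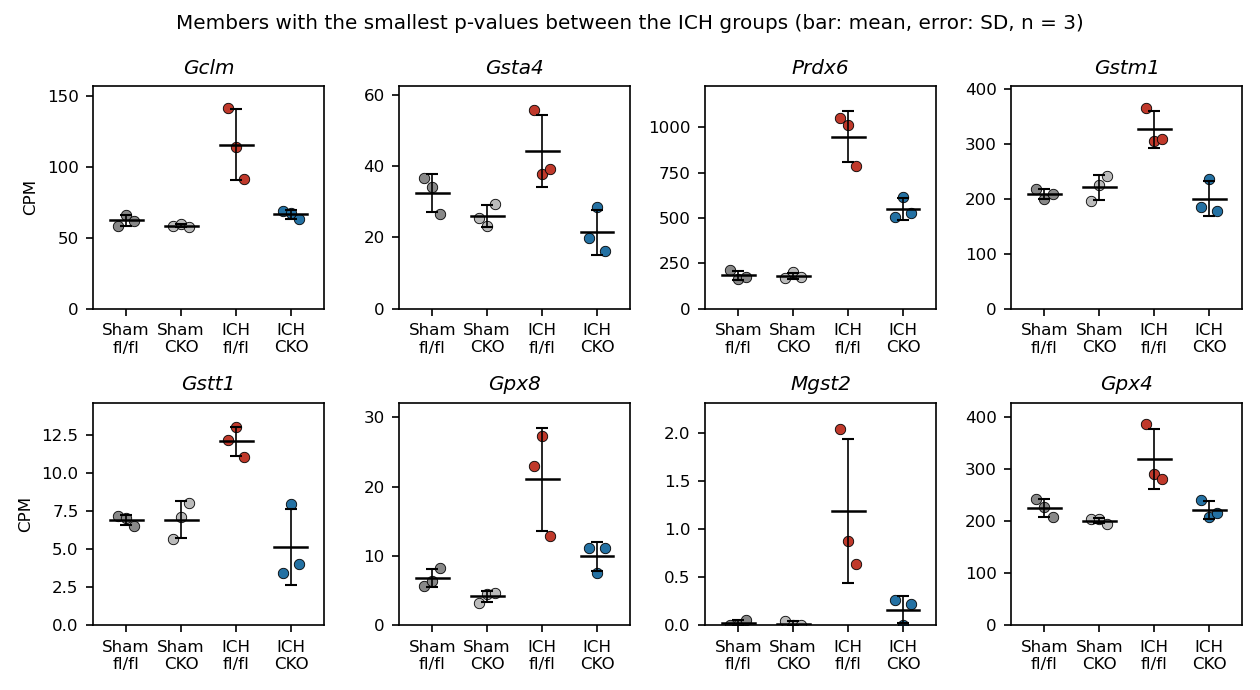
CPM in each of the 12 mice, with the mean (bar) and SD (error bar, n = 3), of the 8 members with an unadjusted p under 0.05 and no overlap between ICH-Fabp4CKO and ICH-Fabp4fl/fl mice, of which Mgst2 passed the filter only through the floxed group. Among the injured mice of each panel all 3 CKO points lie below all 3 floxed points, for Gclm at 63.1 to 69.1 against 91.3 to 141 CPM.

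The 1 member higher in injured CKO mice at an unadjusted p was Gpx3, the secreted plasma peroxidase, named after its values were seen. It was at 46.7, 37.8 and 21.4 CPM in ICH-Fabp4fl/fl and 81.2, 36.2 and 113 CPM in ICH-Fabp4CKO mice, with mouse 2 of the latter inside the floxed range (log2 fold change 1.19, SE 0.46, unadjusted p = 0.0378, adjusted p = 0.384). Members higher at an unadjusted p under 0.05 numbered 3 without ICH-Fabp4CKO mouse 2, and 0 without ICH-Fabp4CKO mouse 1 or 3 or ICH-Fabp4fl/fl mouse 2. For these fits, too, the share of all genes at that threshold was not computed. Nfe2l2 was at 108, 101 and 64.99 CPM and 157, 79.7 and 218 CPM, so that 2 of the 3 CKO mice were above every floxed mouse and mouse 2 lay between them (log2 fold change 0.79, SE 0.39, unadjusted p = 0.0833, adjusted p = 0.457). For Gpx1 (log2 fold change -0.12, SE 0.43, unadjusted p = 0.787, adjusted p = 0.933), Prdx1 (log2 fold change -0.48, SE 0.36, unadjusted p = 0.221, adjusted p = 0.611), Mgst1 (log2 fold change -0.14, SE 0.37, unadjusted p = 0.721, adjusted p = 0.906), Gsr (log2 fold change -0.19, SE 0.29, unadjusted p = 0.525, adjusted p = 0.814) and Txnrd1 (log2 fold change -0.12, SE 0.26, unadjusted p = 0.661, adjusted p = 0.877) the CKO mice overlapped the floxed ones. Gpx1, Gsr, Mgst1 and Txnrd1 changed sign without ICH-Fabp4CKO mouse 2, to 0.22, 0.03, 0.17 and 0.08, and Gpx1, Gsr and Txnrd1 also did so without ICH-Fabp4fl/fl mouse 1, to 0.06, 0.02 and 0.02.

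Further members had an unadjusted p above 0.05 between the injured groups. Sod3 and Cat had log2 fold changes of 0.01 each, with SEs of 0.17 and 0.25, and their sign turned with RLE size factors, with library totals and in DESeq2. Gclc and Srxn1 stood at -0.01 and -0.10 (SEs 0.15 and 0.21), Sod2 at -0.08 (0.25), Keap1 at -0.05 (0.14) and Slc7a11 at 0.15 (0.29). Gss, Nqo1, Sod1 and Gstp1 were between -0.26 and -0.52, with adjusted p between 0.482 and 0.720. Sod1 and Gss did not overlap between the groups, while Nqo1 and Gstp1 did.

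The mitochondrial share of counts and markers of other cell types moved between the injured groups together with these genes. Mitochondrial genes took 10.4% to 16.3% of counts in the ICH-Fabp4fl/fl mice, above all other libraries, and a smaller share in the 3 ICH-Fabp4CKO mice (7.90% in the lowest). The 7 endothelial markers summed to 537 to 1147 CPM in ICH-Fabp4fl/fl mice and 297 to 371 CPM in ICH-Fabp4CKO mice, and all 7 were lower at an unadjusted p under 0.05. The 6 oligodendrocyte markers summed to 18430 to 28450 CPM and 7137 to 11460 CPM, and all 6 were lower at that threshold. Neither list overlapped between the groups, and no marker of either was at 0. Macrophage and monocyte markers summed to 759 to 1972 CPM and 1014 to 8433 CPM, microglial ones to 1231 to 1381 CPM and 1354 to 3952 CPM, and neutrophil ones to 53.3 to 93.5 CPM and 72.2 to 245 CPM, with 2, 2 and 4 genes higher at an unadjusted p under 0.05. Of the neutrophil list, Ly6g was at 0 counts in all 3 ICH-Fabp4fl/fl mice. Fibroblast markers summed to 295, 174 and 79.45 CPM in ICH-Fabp4fl/fl and 767, 60.8 and 1482 CPM in ICH-Fabp4CKO mice, with 2 of 5 higher at the same threshold. Mural cell markers summed to 443 to 946 CPM and 244 to 472.5 CPM, with 2 of 6 lower. Astrocyte markers summed to 6121 to 7912 CPM and 5799 to 8131 CPM, with 1 of 7 lower. Of all genes, 6.36% were higher and 5.82% lower at this threshold. The part of the mitochondrial share and of these cell types in the values of the antioxidant genes was not tested.

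The sham groups compared the genotypes without injury. No member passed the adjusted threshold, where 0% of the 14395 genes tested were higher and 0.111% lower. At an unadjusted p under 0.05 in edgeR's quasi-likelihood test, 1 of 48 members was higher and 6 lower, 2.08% and 12.5%, against 4.15% and 6.07% of all genes, and DESeq2 also called 0 at an adjusted p under 0.05. In the same comparison all 5 fibroblast markers were lower at an unadjusted p and separated the groups (median log2 fold change -1.06), and 4 of 5 choroid plexus and ependyma markers were lower, 2 of them at the adjusted threshold. The part of these cells was not tested. Nqo1 was at 6.89, 5.81 and 7.08 CPM in Sham-Fabp4fl/fl and 4.12, 3.98 and 4.51 CPM in Sham-Fabp4CKO mice, without overlap (log2 fold change -0.64, SE 0.16, unadjusted p = 0.00393, adjusted p = 0.361). Gpx8 was at 5.69, 6.35 and 8.26 CPM and 3.24, 4.52 and 4.69 CPM (log2 fold change -0.69, SE 0.22, unadjusted p = 0.0143, adjusted p = 0.464), and Sod3 at 10.03, 10.02 and 13.3 CPM and 8.88, 7.70 and 8.37 CPM (log2 fold change -0.41, SE 0.16, unadjusted p = 0.0320, adjusted p = 0.480). The single higher one was Gpx3, at 34.99, 33.2 and 42.04 CPM and 50.6, 43.3 and 67.5 CPM (log2 fold change 0.56, SE 0.18, unadjusted p = 0.0135, adjusted p = 0.462). Without Sham-Fabp4fl/fl mouse 3, which had the highest choroid plexus and ependyma markers (3189 CPM) and the lowest oligodendrocyte markers (8403 CPM) of its group, Gpx3, Gpx6 and Txnrd1 were higher and 6 members lower at an adjusted p under 0.05, where 10.5% of all genes were higher and 9.12% lower. Striatal neuron markers summed to 1381, 1584 and 4274 CPM in the Sham-Fabp4fl/fl mice, and Gpx6 stood at 0.193, 0.603 and 3.31 CPM in the same mice. Those markers summed to 1172, 1639 and 3683 CPM in the ICH-Fabp4fl/fl mice, where Gpx6 was at 0.493, 0.312 and 4.14 CPM, and their part in the values of Gpx6 was not tested. Nfe2l2, Prdx6, Gclm, Gstm1 and Mgst1, overlapped between the sham groups, with log2 fold changes between -0.08 and 0.10.

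The difference of the injury response between the genotypes was tested over all 12 libraries, as the log2 fold change after ICH in CKO mice minus that in floxed mice. No member passed the adjusted threshold in edgeR's quasi-likelihood test, which called 0.0133% of 15089 genes higher and 0.00663% lower. The 2 genes called higher were markers of choroid plexus and ependyma. Those markers summed to 868 to 3189 CPM in Sham-Fabp4fl/fl and 73.7 to 76.8 CPM in Sham-Fabp4CKO mice. The contrast includes both sham groups, and the part of this difference in the values of the members was not tested. At an unadjusted p under 0.05, 6 of the 49 members were lower and 0 higher, against 4.37% and 5.57% of all genes, and DESeq2 called 2, Prdx6 and Gstm1, both lower, where it called 0.55% of all genes lower. The smallest p-values were those of Gstm1 (difference -0.79, SE 0.21, unadjusted p = 0.00303, adjusted p = 0.284), Gclm (difference -0.71, SE 0.21, unadjusted p = 0.00546, adjusted p = 0.312), Prdx6 (difference -0.76, SE 0.23, unadjusted p = 0.00789, adjusted p = 0.331) and Gstt1 (difference -1.23, SE 0.40, unadjusted p = 0.0108, adjusted p = 0.353). Without ICH-Fabp4CKO mouse 2, Gstt1 and Gstm1 passed the adjusted threshold, at adjusted p = 0.0220 and 0.0363, where 0.725% of all genes were lower. Nfe2l2 had a difference of 0.81 in the other direction (SE 0.43, adjusted p = 0.567). This test uses the same injured libraries as the direct comparison of the ICH groups, and the results are not independent of each other.

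Per kilobase of exon (CPM divided by the exon length of GENCODE M21, matched by Ensembl identifier for all 58 members), the order of levels changed with injury. In Sham-Fabp4fl/fl mice the highest members were Gstm1 with 141 ± 6.23 CPM per kilobase (SD, n = 3), Gpx4 with 131 ± 10.2, Gstm5 with 102 ± 9.05 and Gstp1 with 99.7 ± 2.26. The last 2 differed by less than their spread. In ICH-Fabp4fl/fl mice Gstm1 at 222 ± 22.9, Gpx1 at 217 ± 60.5, Prdx1 at 205 ± 58.8, Prdx6 at 197 ± 29.5 and Gpx4 at 185 ± 33.8 CPM per kilobase led, neighbors in an order that their spread does not fix. Prdx6 moved from position 12 in Sham-Fabp4fl/fl to 4, and Gstm5 from 3 to 10. In ICH-Fabp4CKO mice Gpx1 came first with 191 ± 94.2 CPM per kilobase and Gstm1 had 136 ± 21.5. Nfe2l2 stood at 6.04 ± 0.640 CPM per kilobase in Sham-Fabp4fl/fl, 24.1 ± 6.10 in ICH-Fabp4fl/fl and 39.9 ± 18.2 in ICH-Fabp4CKO mice.

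Genes of the pathway outside the 58 members were followed by lists. The lists were chosen with earlier results of these data known, so their shares are descriptions. Of 18 further targets of NRF2 or of its competitor BACH1, 14 rose (77.8%, against 26.2% of all genes) and 0 fell after ICH in Fabp4fl/fl mice, and 13 rose (72.2%, against 24.5%) and 0 fell in Fabp4CKO mice. Hmox1, heme oxygenase, which opens heme and releases its iron, averaged 8.46 CPM in Sham-Fabp4fl/fl and 1961 CPM in ICH-Fabp4fl/fl mice (log2 fold change 7.80, SE 0.79, adjusted p = 0.000558). The ferritin subunits Ftl1 and Fth1, which store iron, had log2 fold changes of 4.13 and 1.99 (adjusted p = 0.000811 and 0.00443), and Osgin1 one of 3.49 (adjusted p = 0.00104). Between the injured groups none of the 18 passed the adjusted threshold, and 3 were lower and 0 higher at an unadjusted p under 0.05: Me1 (-0.80), Aox1 (-0.76) and Slc48a1 (-0.59). At that threshold 5.82% of all genes were lower and 6.36% higher. Hmox1 averaged 504 CPM in ICH-Fabp4CKO mice, with a log2 fold change of -1.88 against ICH-Fabp4fl/fl (SE 0.81, adjusted p = 0.421).

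Of 14 regulators of NRF2, 4 rose (28.6%) and 1 fell (7.14%) after ICH in Fabp4fl/fl mice, near the 26.2% of all genes that rose and below the 19.3% that fell, with a median log2 fold change of 0.02 as over all genes. Bach1, the repressor that competes for the same element, rose with a log2 fold change of 1.29 (adjusted p = 0.00165), the small MAF partners Maff and Mafk also rose (adjusted p = 0.00185 and 0.00991; log2 fold change of Maff 3.31), and Sesn2 with 0.48 (adjusted p = 0.0348). Btrc, which encodes a receptor that delivers NRF2 to degradation apart from KEAP1, fell with -1.11 (adjusted p = 0.0129). In Fabp4CKO mice 4 rose (28.6%) and 2 fell (14.3%), where 24.5% of all genes rose and 11.1% fell. Between the injured groups 0 of 14 passed in edgeR, with 1 higher and 2 lower at an unadjusted p under 0.05. Among all genes 6.36% were higher and 5.82% lower at that threshold.

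Among 15 genes of glutathione precursors and turnover, of which 14 were tested, 4 rose (28.6%, near the 26.2% of all genes) and 5 fell (35.7%, against 19.3%) after ICH in Fabp4fl/fl mice. Slc3a2, the partner chain of Slc7a11, rose with a log2 fold change of 1.18 (adjusted p = 0.00399) and Anpep, a peptidase that acts on the breakdown products of glutathione, with 2.72 (adjusted p = 0.00189). Slc1a1, a carrier that brings cysteine into neurons, fell with -0.92 (adjusted p = 0.0191). The 6 neuronal markers all fell in the same comparison; their part in these falls was not tested. In Fabp4CKO mice 2 of the 14 rose (14.3%) and 0 fell at the adjusted threshold, where 24.5% of all genes rose and 11.1% fell. Of 14 glutaredoxins and thioredoxin-related genes, 7 rose (50.0%) and 0 fell in Fabp4fl/fl mice, where 26.2% of all genes rose and 19.3% fell. In Fabp4CKO mice 6 rose (42.9%) and 0 fell, where 24.5% of all genes rose and 11.1% fell. Msrb1, a methionine sulfoxide reductase, was among the genes that rose, with a log2 fold change of 2.05 in Fabp4fl/fl mice (adjusted p = 0.00136). Nxn, nucleoredoxin, averaged 18.6 CPM in Sham-Fabp4fl/fl, 47.7 CPM in ICH-Fabp4fl/fl and 25.5 CPM in ICH-Fabp4CKO mice, with a log2 fold change of -0.85 between the injured groups (unadjusted p = 0.00226, adjusted p = 0.295).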

How the data were processed

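Poly(A) RNA of 12 libraries had been sequenced by the authors, who deposited 1 table of estimated counts for 21956 genes; the submitters' processing notes name HISAT2, Bowtie2 2.2.8, StringTie 1.3.1 and DESeq2 without their roles, and the genome build is not given in the sources used here. Between 7.36% and 8.69% of the values of a library were not whole, and the counts were rounded before testing. Groups followed the labels, with 3 libraries each and totals from 15650813 to 22406216.

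Genes were filtered with filterByExpr (at least 10 counts, 15 in total) and tested with edgeR 4.0.16 (R 4.3.3) by TMM normalization and the quasi-likelihood test, with Benjamini-Hochberg adjustment over all genes tested and a threshold of 0.05. Pairwise comparisons used the 6 libraries concerned, and the difference of the injury response used all 12. Standard errors were derived from the fold change and the F statistic. The steps were tested on simulated data. Alternatives were RLE size factors, library totals, DESeq2 1.42.0, no filter, 10 counts in every library, all 12 libraries in one fit, the replicate number as a block, and each library left out. Figures were drawn with matplotlib 3.10.9.

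Members followed a rule on symbols. Values in every mouse are given for 22 members always described, for up to 8 per direction, ranked by p, among members with separate groups that passed the adjusted threshold (Fabp4fl/fl, ICH against sham) or had an unadjusted p under 0.05 (between the ICH groups), and for members past the adjusted threshold in the sham comparison or the difference between genotypes. Members, marker lists and pathway lists were chosen with earlier results of these data known. Intervals and floors cover counting error only. One gene of the pathway lists is not reported here by name.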

Additional observations from a re-analysis of the deposited data

How the results depend on the processing

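Counts of called members moved with the fit as follows. After ICH in Fabp4fl/fl mice, 20 higher became 17 to 22 and 2 lower became 4 with the replicate block; with 1 library left out they were 14 to 22 and 1 to 3, with 1 without Sham-Fabp4fl/fl mouse 1 or 2 or ICH-Fabp4fl/fl mouse 1 or 2. In Fabp4CKO mice, 14 higher became 9 to 17, with 9 under the replicate block, and 3 lower became 6 with DESeq2 and 0 with the block; the ranges with 1 library left out were 3 to 22 and 0 to 10, and all 6 libraries moved both counts. Between the ICH groups, 0 lower became 4 with DESeq2 and 4 with all 12 libraries in one fit, and stayed 0 with each library left out; at an unadjusted p the 8 lower became 14 and the 1 higher 2 with all 12 libraries, and 0 higher with the block, with ranges of 5 to 10 and 0 to 3 over the libraries. The share of all genes at an unadjusted p was not computed in these alternative fits. Between the sham groups the ranges were 0 to 3 higher and 0 to 6 lower, from Sham-Fabp4fl/fl mouse 3 alone. For the difference of the responses, 0 lower became 2 with DESeq2 and 0 to 2 over the libraries, from ICH-Fabp4CKO mouse 2 alone. The cause of these moves was not tested.

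Whether the replicate numbers pair the libraries is not settled. In the Fabp4fl/fl comparison, deviations of same-numbered libraries correlated at 0.235, 0.044 and 0.165, above those of different numbers (-0.224 to 0.00835). In the CKO comparison they were -0.00737, 0.0136 and 0.00801, within the range of different numbers (-0.0565 to 0.063). Same-numbered libraries gave 0.394, -0.184 and -0.634 between the ICH groups and 0.0748, -0.237 and -0.125 between the sham groups. The labels name no pairing, so the block is only a setting.

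Signs that turned belonged to uncalled members. After ICH in Fabp4fl/fl mice Gstp1 was -0.0172 with RLE, -0.0457 with totals, -0.0173 with DESeq2 and -0.0241 unfiltered. Between the ICH groups Cat was -0.0159 with RLE, -0.0585 with totals, -0.0158 with DESeq2, -0.0476 with all 12 libraries and -0.0251 with the block, and Sod3 was -0.0170, -0.0462, -0.0173, -0.0464 and -0.0003. With 1 library left out, the ranges of members that changed sign were -0.466 to 0.0827 for Gss, -0.1005 to 0.0713 for Gstp1 and -0.0522 to 0.2265 for Sod1 in Fabp4fl/fl mice. Between the ICH groups they were -0.4801 to 0.2206 for Gpx1, -0.364 to 0.0322 for Gsr, -0.1079 to 0.1278 for Sod3, -0.3021 to 0.0814 for Txnrd1, -0.1537 to 0.2171 for Gstm5, -0.2369 to 0.1875 for Cat, -0.1816 to 0.3063 for Slc7a11, -0.2479 to 0.0853 for Sod2, -0.5493 to 0.1658 for Mgst1, -0.0978 to 0.0733 for Gclc and -0.3017 to 0.0116 for Srxn1. Over the 26 members followed singly in Fabp4fl/fl mice, 170 of 181 values under the other alternatives kept direction and call, 4 lost the call (Slc7a11 in 3, Cat with totals; Gstm4, not among the 26, was not called with RLE, with totals, unfiltered or with the block), 3 gained it (Gpx4) and 4 reversed. With 1 library left out, 129 of 156 values of the same 26 members kept direction and call, 20 lost the call, 1 gained it and 6 reversed. The 9 members that passed no filter could not be compared at this depth.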

Other observations

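Metallothioneins, small metal-binding proteins that also scavenge oxidants, rose together after ICH in Fabp4fl/fl mice, 3 of 3 tested, where 26.2% of all genes rose. The lists in this section were chosen with earlier results of these data known, so their shares are descriptions. Mt1 averaged 148.1 CPM in Sham-Fabp4fl/fl and 1064 CPM in ICH-Fabp4fl/fl mice, with a log2 fold change of 2.79 (adjusted p = 0.00152 in edgeR's quasi-likelihood test), and Mt2 and Mt3 had 3.11 and 1.17. In Fabp4CKO mice 2 of 3 rose, where 24.5% of all genes rose. In ICH-Fabp4CKO mice Mt1, Mt2 and Mt3 averaged 364, 253.5 and 80.9 CPM, against 1064, 715 and 195 CPM in ICH-Fabp4fl/fl mice. None passed the adjusted threshold between the ICH groups (log2 fold changes -1.48, -1.43 and -1.21, adjusted p = 0.314, 0.314 and 0.295), while all 3 were lower at an unadjusted p under 0.05 and separated the groups. Of all genes, 5.82% were lower at that threshold and 19.8% separated the groups.

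Of 12 genes of ferroptosis, of which 11 were tested, 4 rose (36.4%) and 1 fell (9.09%) in Fabp4fl/fl mice, where 26.2% of all genes rose and 19.3% fell, and 5 rose (45.5%) and 0 fell in Fabp4CKO mice, where 24.5% rose and 11.1% fell. Slc40a1, ferroportin, which exports iron, had log2 fold changes of 2.58 and 2.61 (adjusted p = 0.00035 and 0.0131), and Acsl4, which primes polyunsaturated lipids for peroxidation, fell in Fabp4fl/fl mice (-0.58, adjusted p = 0.0324). Of 11 genes of selenoprotein synthesis and transport, 1 rose (9.09%, below the share of all genes) and 0 fell in Fabp4fl/fl mice (Selenow, 0.71, adjusted p = 0.00951), and 2 rose (18.2%) and 1 fell (9.09%) in Fabp4CKO mice. Between the ICH groups 0 of 11 passed the adjusted threshold in edgeR, with 0 higher and 2 lower at an unadjusted p under 0.05, Selenow (-0.68) and Selenom (-0.63). Among all genes 6.36% were higher and 5.82% lower at that threshold.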
